A study of Mus musculus with 9 samples.

Results

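The interferon response genes are a list of 43 mouse genes that interferons are known to induce, from the oligoadenylate synthetase (OAS) family to the interferon-inducible GTPases and the immunoproteasome. The list was set by gene name and was chosen with earlier results of these data known. Shares of members given beside those of all genes therefore describe the list and were not tested. Of the 43 genes, 41 had at least 1 probe set on the array whose annotation names that gene alone, and all 41 passed the filter on dim probe sets, out of 11961 genes tested and 18193 genes measured. Isg15 was annotated only on a probe set shared with other genes, and Ifi44 was not matched by name, so both are not analysed here. Each gene is represented by its brightest probe set over the 9 arrays. Other probe sets of the gene are described where they were above the median intensity of the array on at least 3 arrays.

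The cells were bone marrow progenitors sorted from mice as Lineage-CD117+SCA-1+CD135+, the multipotent fraction that expresses the Flt3 receptor. There were 3 arrays from wild-type mice (WT), 3 from E2A-/- mice, which lack E2A, the E proteins encoded by Tcf3, and 3 from Lyl1-/- mice, which lack the basic helix-loop-helix factor Lyl1. All 3 groups were sorted with the same gate and received no treatment that the labels name. Age, sex, strain background and the design of the alleles were not given in the sources used here, nor was the number of mice behind each sample. The labels call the 3 arrays of each genotype biological replicates.

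Several properties of the arrays touch every comparison. WT 1 and WT 3 differed far less than any other pair of arrays, with a spread of 0.0827 (log2) over bright probe sets against 0.193 to 0.375 in the 35 other pairs, and were averaged to 1 sample, so WT has n = 2. Lyl1 mRNA was 1352 to 1443 intensity units on the WT arrays and 79.2 to 92.0 on the Lyl1-/- arrays, near the array medians of 77.9 to 79.2. On the E2A-/- arrays Lyl1 was at 1222, 825 and 900, below WT without overlap (log2 difference -0.53, SE 0.165, limma adjusted p = 0.399). Tcf3 was 164 to 205 on WT and 121 to 193 on E2A-/- arrays (log2 difference -0.19, SE 0.188, adjusted p = 0.888), and the part of the gene that was deleted was not given in the sources used here. Of the sorting markers, Kit (CD117, 314 to 508) and Flt3 (CD135, 672 to 1302) were above the array median on all 9 arrays, and Ly6a (SCA-1) is not analysed here. Xist, transcribed in females, was between 2001 and 2362 on E2A-/- 2, Lyl1-/- 1 and Lyl1-/- 2 and at most 104 on the other arrays. The 3' to 5' signal ratio of the actin control, a measure of RNA integrity, was 10.6 on WT 2 and 10.1 on E2A-/- 2 against 2.85 to 4.23 elsewhere.

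Type I interferons signal through the Ifnar1 and Ifnar2 receptor chains and the kinases Jak1 and Tyk2 to a complex that holds Stat2 and Irf9 and binds the interferon-stimulated response element (ISRE) of its target genes. Interferon gamma signals through Ifngr1 and Ifngr2 and acts on genes that carry the gamma-activated site (GAS). The induced proteins sense viral nucleic acids, degrade RNA, block viral entry or replication, and present antigen. Haematopoietic stem and progenitor cells are known to carry a part of this programme at a steady level without infection.

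The promoters of the members show which part of the list carries the element that names it. A window of 300 bases, from 250 before to 50 after the gene start, was available for 33 of the 43 genes (RefSeq, GRCm38.p6). The ISRE core, searched on both strands as 2 copies of GAAA with any 2 bases between them, was in 17 of the 33 windows (51.5%), against 3.44% of all 32851 windows of that length. Of the 26 matches, 21 began before the gene start, and 2 shared bases with a GAS match. The GAS letters TTCNNNGAA were in 9 of the 33 windows (27.3%), against 8.3% of all windows. The E-box CAGCTG, the kind of site that E2A and Lyl1 proteins can bind, was in the windows of 7 members (21.2%), and CACCTG in those of 8 (24.2%), against 18.3% and 22.6% of all genes with a window. The stretches below belong to the 4 members that have an ISRE core and a difference with unadjusted p under 0.05 to the lower side in E2A-/- (Oas1a, Ifit1, Irgm1 and Gbp2) and to Bst2, which was on the higher side in Lyl1-/-. They are written 5′ to 3′ along the gene, end before the gene start, and have 1 ISRE core match in capitals, which reads as its reverse complement where the match is on the other strand.
Oas1a (chr5:120907526-120907564, minus strand): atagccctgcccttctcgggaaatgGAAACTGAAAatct
Ifit1 (chr19:34640779-34640838, plus strand): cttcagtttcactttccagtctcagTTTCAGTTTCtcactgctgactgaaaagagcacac
Irgm1 (chr11:48871421-48871469, minus strand): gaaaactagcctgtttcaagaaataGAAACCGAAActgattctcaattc
Gbp2 (chr3:142620579-142620638, plus strand): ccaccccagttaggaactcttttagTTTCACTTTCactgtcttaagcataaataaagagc
Bst2 (chr8:71537562-71537621, minus strand): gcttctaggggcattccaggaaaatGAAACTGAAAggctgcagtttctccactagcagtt
The capitals begin 14 bases before the gene start in Oas1a, 24 in Irgm1, 59 in Gbp2, 85 in Ifit1 and 124 in Bst2. A match describes these letters and is not a measured binding site.

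In E2A-/- progenitors, most interferon response genes were at lower levels than in WT, by small amounts. The difference was negative for 32 of 41 members (78%), against 53.7% of all genes tested, and its median was -0.17 on the log2 scale, against -0.01 for all genes. No member passed the adjusted threshold of 0.05 (limma, Benjamini-Hochberg over all genes tested), where 0.226% of all genes did. With unadjusted p under 0.05, 11 members were lower (26.8%) and 1 was higher, against 5.36% and 3.21% of all genes. The E2A-/- samples lay wholly below the WT samples for 17 members (41.5%) and wholly above for 1, against 12.7% and 9.70% of all genes. With WT 1 and WT 3 kept apart, 16 members lay wholly below, against 10.3% of all genes, since 1 of the 17, Zbp1, then overlapped.

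In Lyl1-/- progenitors members were found on both sides of WT. The difference from WT was negative for 23 of 41, against 51.4% of all genes, and the median was -0.05. Without WT 2, 29 of 41 were negative and the median was -0.11. Only 1 member passed the adjusted threshold, Xaf1, where 0.192% of all genes did. With unadjusted p under 0.05, 6 members were lower and 4 higher, against 5.0% and 3.80% of all genes. The Lyl1-/- samples lay wholly below WT for 9 members and wholly above for 4, against 14.5% and 12.2% of all genes. Both knockouts were compared with the same WT samples, so the likeness of the 2 comparisons is not a result of its own.

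In the direct comparison of the knockouts, the log2 differences and the overlap of arrays do not use the WT values. Its p-values do, since the WT samples enter the residual variance of the shared limma fit. E2A-/- was lower than Lyl1-/- for 31 of 41 members (75.6%), against 52.6% of all genes, with a median of -0.18. No member passed the adjusted threshold, which 0.117% of all genes did. With unadjusted p under 0.05, 11 members were lower and 0 higher in E2A-/-, against 4.8% and 3.85% of all genes. The E2A-/- arrays lay wholly below the Lyl1-/- arrays for 12 members and wholly above for 0, against 6.45% and 5.73% of all genes.

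**Figure D1:**
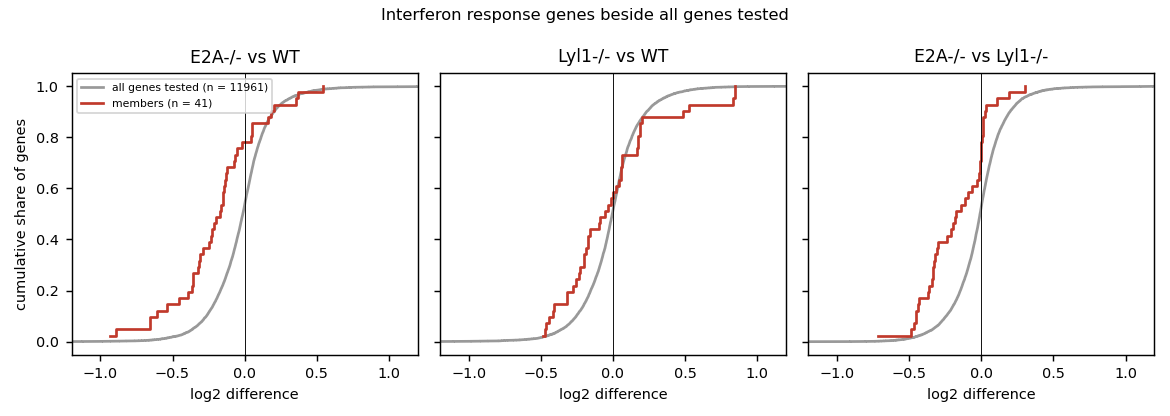
Cumulative share of genes (vertical axis) by log2 difference (horizontal axis, log2 units) for the 41 members and all 11961 genes tested, in each of the 3 comparisons. The curve of the members lies to the left of the curve of all genes over most of the range in E2A-/- against WT (medians -0.17 and -0.01) and in E2A-/- against Lyl1-/- (medians -0.18 and -0.01), and crosses it in Lyl1-/- against WT.

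The lower levels were seen on each E2A-/- array. Relative to the mean of the WT samples, 31 members were lower on E2A-/- 1, 30 on E2A-/- 2 and 30 on E2A-/- 3, with medians of -0.18, -0.16 and -0.20. On the Lyl1-/- arrays 20, 22 and 26 members were lower, with medians of 0.00, -0.08 and -0.07. On the WT arrays 13, 25 and 18 members were lower, with medians of 0.05, -0.07 and 0.06. The median of each E2A-/- array was below that of all 6 other arrays. Over all genes tested, the array medians ran from -0.04 on E2A-/- 3 to 0.01 on E2A-/- 1. Without WT 2 and E2A-/- 2, the arrays with high actin ratios, the median difference of the members was -0.25 with 35 of 41 negative, and with sex as a covariate it was -0.22 with 32 negative. With WT 2 as the only WT sample, it was -0.13 with 25 negative. In sorted bulk samples, fewer cells with a transcript and less of it per cell cannot be told apart.

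**Figure D2:**
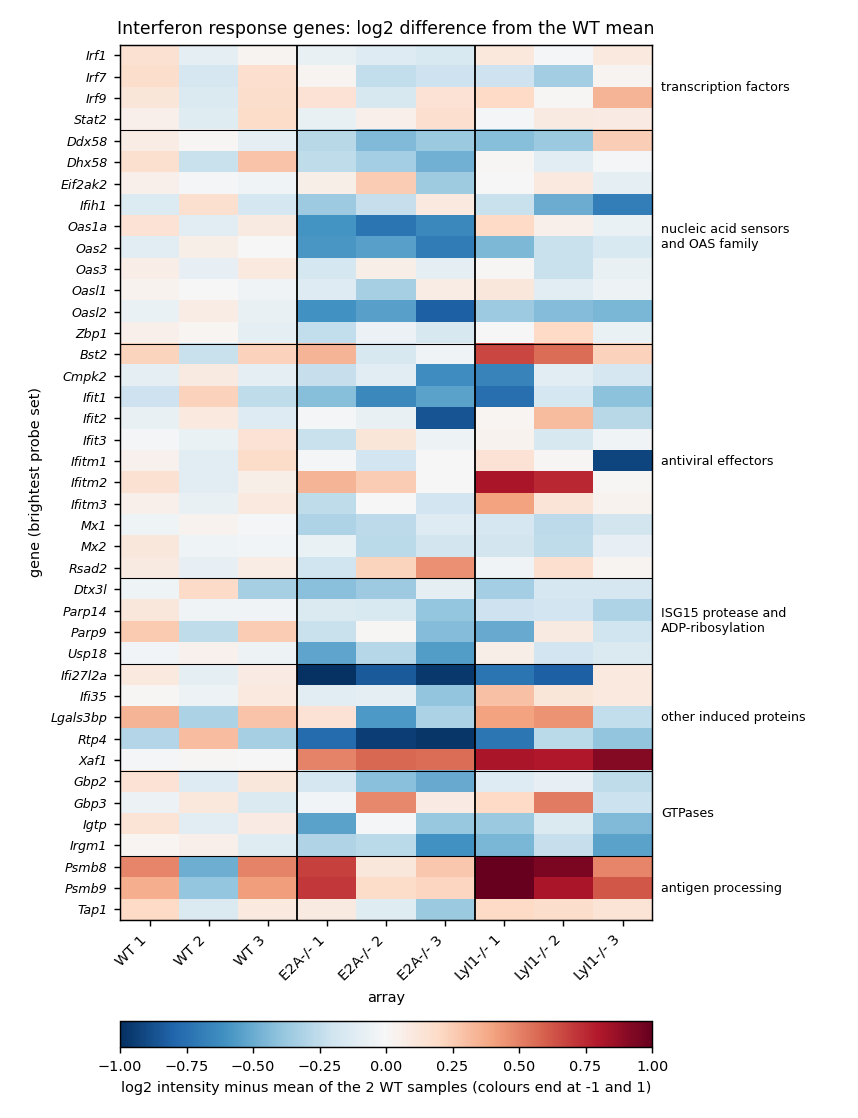
Log2 difference of each of the 41 members (rows, grouped by role) from the mean of the 2 WT samples on each of the 9 arrays (columns), with blue for lower and red for higher. The 3 E2A-/- columns are mostly blue, with 30 or 31 of 41 members lower on each, and Xaf1, Psmb8 and Psmb9 stand out in red in the Lyl1-/- columns.

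The OAS family held the members with the smallest p-values to the lower side in E2A-/-. These enzymes are activated by double-stranded RNA and make the oligoadenylates that switch on RNase L, while the Oasl proteins are related sensors. Oas1a was at 941, 786 and 907 on the 3 WT arrays, 562, 515 and 546 on the E2A-/- arrays, and 976, 883 and 813 on the Lyl1-/- arrays. Only E2A-/- stood apart, with all its arrays below all 6 others. The E2A-/- level was 0.634 times that of WT (log2 difference -0.66, SE 0.117, adjusted p = 0.109) and 0.608 times that of Lyl1-/- (log2 difference -0.72, SE 0.104, adjusted p = 0.0728), while Lyl1-/- differed from WT by 0.06 (SE 0.117). Oas1a passed the threshold in both E2A-/- comparisons when the 9 arrays were counted as separate samples. That setting counts WT 1 and WT 3 separately, though they were nearly alike.

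Oas2 was at 179, 200.4 and 192 on WT, 128, 132 and 119 on E2A-/-, and 141, 165 and 174 on Lyl1-/- arrays. The 3 genotypes were ordered without overlap, with WT highest and E2A-/- lowest. The log2 difference from WT was -0.61 (SE 0.115, adjusted p = 0.118) in E2A-/- and -0.27 (SE 0.115, adjusted p = 0.554) in Lyl1-/-. Oasl2 had the same order, with 246, 270.2 and 244 on WT, 169, 177 and 146 on E2A-/-, and 200.3, 190.3 and 188 on Lyl1-/- arrays. Its log2 difference from WT was -0.65 (SE 0.111, adjusted p = 0.0884) in E2A-/- and -0.42 (SE 0.111, adjusted p = 0.284) in Lyl1-/-. Oas2 and Oasl2 passed the threshold in E2A-/- when the 9 arrays, with the nearly alike WT 1 and WT 3, were counted as separate samples. Oas3 (70.8 to 88.3 over all arrays, at the level of the array median) and Oasl1 (134 to 182) overlapped in all 3 genotypes, with log2 differences of -0.07 and -0.13 in E2A-/-.

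The cytoplasmic RNA helicases had negative differences too, each with its own pattern. Dhx58, which encodes the regulator LGP2, was at 174, 133 and 189 on WT, 130.2, 123 and 111 on E2A-/-, and 156, 144 and 154 on Lyl1-/- arrays. All E2A-/- arrays were below both other genotypes, though E2A-/- 1 and WT 2 nearly met, and the log2 difference from WT was -0.36 (SE 0.142, adjusted p = 0.547), or -0.58 without WT 2. Ddx58, the RNA sensor RIG-I, was at 354, 339 and 313 on WT, 277, 248 and 260.0 on E2A-/-, and 249, 259 and 397 on Lyl1-/- arrays. Lyl1-/- 1 and 2 were at the E2A-/- level and Lyl1-/- 3 was above WT. Its log2 difference from WT was -0.36 (SE 0.188, adjusted p = 0.68) in E2A-/- and -0.19 (SE 0.188, adjusted p = 0.891) in Lyl1-/-. The other 2 Ddx58 probe sets, which were dimmer, differed from WT by -0.03 and -0.04 in E2A-/-.

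Ifih1, the RNA sensor MDA5, was the helicase with the lower values in Lyl1-/-. It was at 412, 505 and 399.9 on WT, 352, 386 and 484 on E2A-/-, and 388, 322 and 280.5 on Lyl1-/- arrays. Lyl1-/- lay below WT without overlap (log2 difference -0.47, SE 0.184, adjusted p = 0.514, and -0.31 without WT 2), and E2A-/- overlapped WT through E2A-/- 3 (log2 difference -0.17). Zbp1, a sensor of Z-form nucleic acid, was at 117, 114 and 106 on WT, 95.0, 108 and 101 on E2A-/-, and 112, 129 and 108 on Lyl1-/- arrays (log2 difference -0.15 in E2A-/-). Its other probe set, near the array median, lay wholly above WT in E2A-/- (80.2 to 83.2 against 67.3 to 79.8, log2 difference 0.15). Eif2ak2, the kinase PKR that halts translation, was between 73.3 and 112 on all arrays with a log2 difference of -0.02 in E2A-/-, and its other probe sets differed by -0.08 and -0.13. All 10 sensors and OAS genes had negative differences in E2A-/- and 7 of 10 in Lyl1-/-, where 53.7% and 51.4% of all genes did. The medians were -0.26 and -0.06. In E2A-/- the differences of Eif2ak2, Oas3, Oasl1 and Ifih1 were smaller than their SE.

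Usp18, the protease that removes ISG15 from proteins and dampens the receptor Ifnar2, was at 122, 128 and 120.5 on WT, 86.6, 103 and 85.0 on E2A-/-, and 129.9, 109.6 and 113 on Lyl1-/- arrays. The E2A-/- values were below both other genotypes, which overlapped each other. Its log2 difference was -0.46 from WT (SE 0.122, adjusted p = 0.3) and -0.36 from Lyl1-/- (SE 0.109, adjusted p = 0.41). Parp14, an ADP-ribosyltransferase, was at 478, 432 and 431 on WT, 401, 399 and 339 on E2A-/-, and 383, 388 and 358 on Lyl1-/- arrays. Both knockouts lay below WT, by log2 differences of -0.23 (SE 0.107, adjusted p = 0.632) and -0.24 (SE 0.107, adjusted p = 0.583), and the other probe set by -0.15 and -0.16. Parp9, of the same enzyme family, and its partner Dtx3l, a ubiquitin ligase, overlapped across genotypes, with differences of -0.21 and -0.29 in E2A-/- and -0.20 and -0.23 in Lyl1-/-. The other Dtx3l probe set had positive differences of 0.09 and 0.32. The genes of Parp9 and Dtx3l lie next to each other on chromosome 16.

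Rtp4, a chaperone of membrane receptors and an interferon-induced antiviral protein, was at 549, 836 and 536 on WT, 395, 351 and 343 on E2A-/-, and 408, 558 and 511 on Lyl1-/- arrays. WT 2 was the highest array, and all E2A-/- arrays lay below all others. The E2A-/- level was 0.538 times WT (log2 difference -0.89, SE 0.198, adjusted p = 0.191), and that of Lyl1-/- 0.725 times WT (log2 difference -0.46, SE 0.198, adjusted p = 0.557). Without WT 2, the differences of Rtp4 were -0.58 in E2A-/- and -0.15 in Lyl1-/-. Ifi27l2a, a small mitochondrial membrane protein strongly induced by interferon, had the largest negative difference among the brightest probe sets of the list in E2A-/-. It was at 445, 389.8 and 441 on WT, 209, 232 and 213 on E2A-/-, and 250.2, 237 and 445 on Lyl1-/- arrays. Lyl1-/- 3 was at the WT level while Lyl1-/- 1 and 2 were close to E2A-/-. The log2 difference from WT was -0.93 in E2A-/- (SE 0.245, adjusted p = 0.289) and -0.48 in Lyl1-/- (SE 0.245, adjusted p = 0.647), and without Lyl1-/- 3 in the fit the E2A-/- difference passed the threshold.

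**Figure D3:**
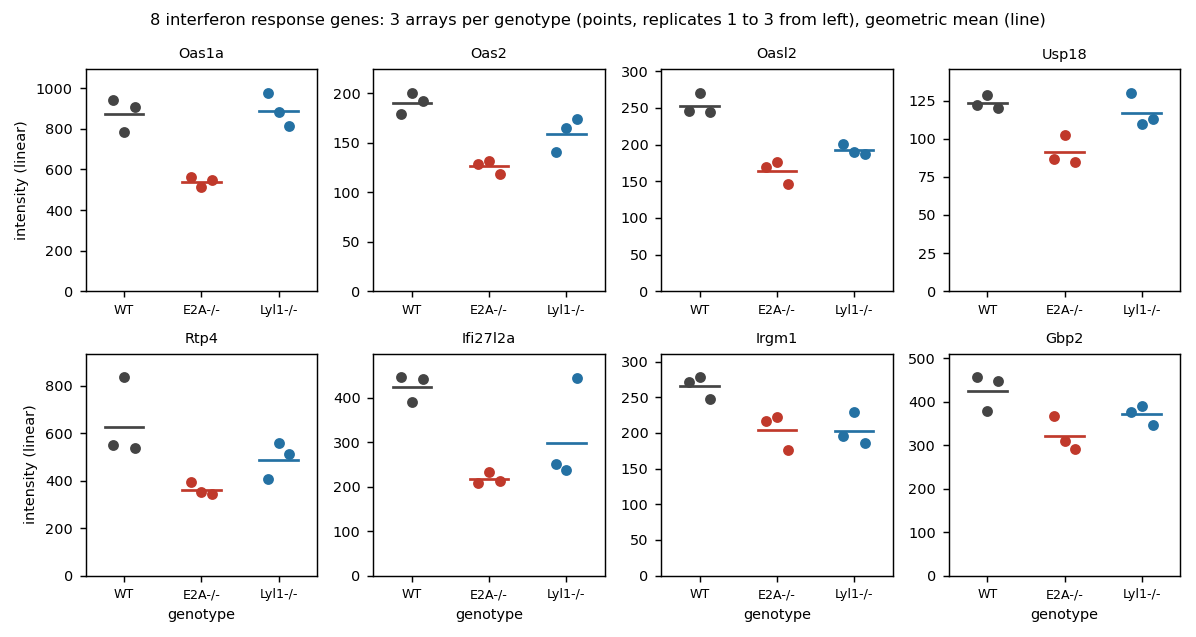
Intensity (vertical axis, linear array units) of 8 members by genotype (horizontal axis), with 1 point per array in the order of replicates 1 to 3 and a line at the geometric mean of the 3 arrays. The E2A-/- points lie below all WT points in every panel, and Oas1a shows Lyl1-/- at the WT level (813 to 976 against 786 to 941), whereas Ifi27l2a shows 1 Lyl1-/- array at 445 and the other 2 at 250.2 and 237.

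The division of the Lyl1-/- arrays by Ifi27l2a ran with other measures. In Lyl1-/-, arrays 1 and 2 had Xist and the lower Ifi27l2a and Ddx58, and array 3 had neither. In E2A-/-, array 2 had Xist and its Ifi27l2a of 232 was close to the 209 and 213 of the arrays without it. The summed intensity of 12 granulocyte and monocyte transcripts was also higher on Lyl1-/- 1 and 2 (3095 and 2603) than on Lyl1-/- 3 (1521). The part of these in the Ifi27l2a and Ddx58 values was not tested.

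The GTPases that interferon gamma induces, which attack the vacuoles of intracellular microbes, had negative differences in both knockouts for 3 of the 4 members. Irgm1 was at 272, 278 and 247 on WT, 217, 222 and 176 on E2A-/-, and 196, 229 and 185 on Lyl1-/- arrays. Both knockouts lay below WT and overlapped each other, with log2 differences of -0.39 (SE 0.138, adjusted p = 0.467) and -0.41 (SE 0.138, adjusted p = 0.432). Igtp, also named Irgm3, was at 405, 343 and 391 on WT, 255, 364 and 284 on E2A-/-, and 285, 334 and 272 on Lyl1-/- arrays. Lyl1-/- lay below WT (log2 difference -0.32, SE 0.166, adjusted p = 0.658) and E2A-/- 2 reached into the WT range.

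Gbp2, a guanylate-binding protein, was at 456, 378 and 448 on WT, 367, 309 and 291 on E2A-/-, and 377, 391 and 346 on Lyl1-/- arrays. E2A-/- lay below WT (log2 difference -0.37, SE 0.133, adjusted p = 0.486). The other probe set of Gbp2 had the same direction in both knockouts, with -0.56 in E2A-/- and -0.35 in Lyl1-/-. Gbp3 was the exception of this group, between 209.6 and 349 with a log2 difference of 0.18 in E2A-/- and 0.17 in Lyl1-/-.

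Among the antiviral effectors, Ifit1, which binds viral RNA that lacks a host cap, was at 127, 172 and 124 on WT, 109, 93.9 and 102 on E2A-/-, and 87.2, 130.1 and 111 on Lyl1-/- arrays. All E2A-/- arrays were below WT, and Lyl1-/- 2 reached into the WT range. The log2 difference was -0.54 (SE 0.19, adjusted p = 0.477) in E2A-/- and -0.45 (SE 0.19, adjusted p = 0.557) in Lyl1-/-. Without WT 2, the highest array, the differences of Ifit1 were -0.31 and -0.22, and without Lyl1-/- 1 that of Lyl1-/- was -0.29. Its relatives Ifit2 (71.6 to 162) and Ifit3 (75.7 to 97.7) overlapped in all genotypes, with -0.32 and -0.05 in E2A-/-.

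Mx1 and Mx2, dynamin-like GTPases that block virus replication, were close to the array median. Mx1 was at 85.3, 90.0 and 86.8 on WT, 71.2, 73.6 and 80.6 on E2A-/-, and 78.4, 73.4 and 77.7 on Lyl1-/- arrays. Mx2 was at 97.4, 87.6 and 88.6 on WT, 86.2, 74.7 and 79.4 on E2A-/-, and 79.5, 75.6 and 85.4 on Lyl1-/- arrays. Both lay below WT in both knockouts, with log2 differences of -0.23 and -0.17 in E2A-/- and -0.20 and -0.17 in Lyl1-/-, and values this dim understate a difference.

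Cmpk2, a mitochondrial nucleotide kinase, was at 157, 179 and 157 on WT, 143, 154 and 109 on E2A-/-, and 105, 155 and 149 on Lyl1-/- arrays. Both knockouts lay below WT, by -0.32 (SE 0.202, adjusted p = 0.762 and 0.749), with 1 array of each well below the other 2. Its direct neighbour on chromosome 12, Rsad2, the antiviral enzyme viperin, was between 241 and 380.2 and had differences of 0.16 and 0.05. Another Rsad2 probe set was higher in E2A-/- than in Lyl1-/- without overlap (119, 152 and 135 against 89.6, 111 and 98.4; log2 difference 0.44, adjusted p = 0.487 with each probe set tested).

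The membrane proteins Bst2 and Ifitm2 had positive differences in Lyl1-/-, which rested on 2 of the 3 arrays. Bst2, the tetherin that holds budding virions at the surface, was at 253, 186 and 255 on WT, 275, 195 and 212 on E2A-/-, and 345, 319.8 and 255 on Lyl1-/- arrays. Lyl1-/- 1 and 2 lay well above WT and Lyl1-/- 3 was level with WT 3. The log2 difference from WT was 0.49 in Lyl1-/- (SE 0.201, adjusted p = 0.55, and 0.26 without WT 2) and 0.05 in E2A-/- (-0.17 without WT 2). Ifitm2, which blocks the fusion of viruses with endosomes, was at 975, 813 and 913 on WT, 1107, 1047 and 879 on E2A-/-, and 1544, 1474 and 882 on Lyl1-/- arrays. Again Lyl1-/- 1 and 2 were high and Lyl1-/- 3 was in the WT range (log2 difference 0.53, SE 0.234, adjusted p = 0.575).

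Ifitm3, a relative of Ifitm2, was at 1925, 1762 and 1987 on WT, 1559.7, 1854 and 1628 on E2A-/-, and 2449.9, 2035 and 1907 on Lyl1-/- arrays. E2A-/- lay below Lyl1-/- (log2 difference -0.34, SE 0.12, adjusted p = 0.484) and overlapped WT, as did Lyl1-/- (log2 difference 0.19). Ifitm1 was at 4158 to 5391 on 8 arrays and at 2511 on Lyl1-/- 3, with log2 differences of -0.25 in Lyl1-/- and -0.07 in E2A-/-. The Ifitm genes lie in 1 cluster on chromosome 7, and Ifitm1 is the direct neighbour of Ifitm2.

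The 3 antigen processing members had the largest positive median of the roles, 0.83 in Lyl1-/- and 0.35 in E2A-/-, and these values rested on the low levels of WT 2. Without WT 2 the differences in Lyl1-/- were 0.35 for Psmb8, 0.44 for Psmb9 and 0.03 for Tap1, and those in E2A-/- were -0.14, -0.02 and -0.28. Psmb8 and Psmb9 are subunits of the immunoproteasome, which cuts peptides for MHC class I, and Tap1 is a subunit of the transporter that carries them. Psmb8 was at 929, 472 and 938 on WT, 1065, 716 and 801 on E2A-/-, and 1423, 1274 and 932 on Lyl1-/- arrays. WT 2 lay far below the other WT arrays, and Lyl1-/- 1 and 2 above all others. The log2 difference was 0.84 in Lyl1-/- (SE 0.303, adjusted p = 0.457) and 0.35 in E2A-/- (SE 0.303, adjusted p = 0.859).

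Psmb9 was at 836, 496 and 868 on WT, 1060.4, 738 and 755 on E2A-/-, and 1355, 1146 and 1001 on Lyl1-/- arrays. All Lyl1-/- arrays lay above all WT arrays (log2 difference 0.83, SE 0.252, adjusted p = 0.367), and WT 2, an array with a high actin ratio, was again the lowest. Tap1 was at 950.1, 750.2 and 885 on WT, 883, 761 and 643 on E2A-/-, and 951, 938 and 913 on Lyl1-/- arrays, where E2A-/- lay below Lyl1-/- (log2 difference -0.31, SE 0.131, adjusted p = 0.562, and -0.19 without E2A-/- 3). The 3 genes lie side by side on chromosome 17. The other probe set of Psmb8 did not share the low WT 2 value, with 145, 144 and 158 on WT, 176, 217 and 247 on E2A-/-, and 256, 211 and 224 on Lyl1-/- arrays. It lay above WT in both knockouts, with log2 differences of 0.51 (adjusted p = 0.385) and 0.63 (adjusted p = 0.24) when each probe set was tested.

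**Figure D4:**
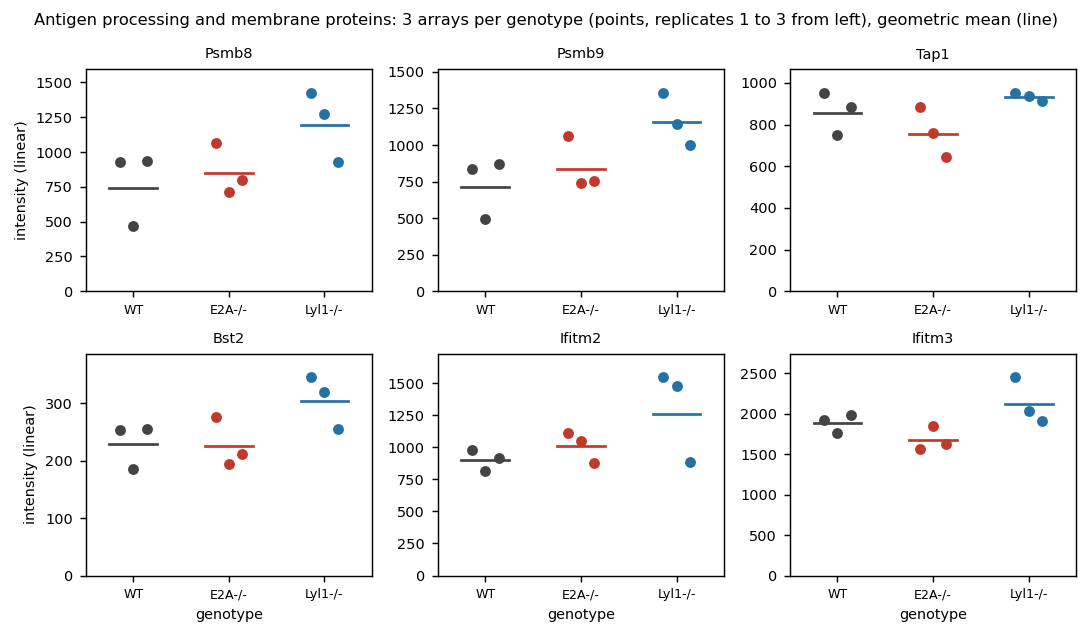
Intensity (vertical axis, linear array units) of the 3 antigen processing members and 3 membrane proteins by genotype (horizontal axis), with 1 point per array in the order of replicates 1 to 3 and a line at the geometric mean of the 3 arrays. Lyl1-/- 1 and 2 are the highest points for Psmb8, Psmb9, Bst2 and Ifitm2, and WT 2 is the lowest point for Psmb8 (472), Psmb9 (496) and Bst2 (186).

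Of the 4 transcription factors of the list, 2 had negative differences in E2A-/- and 1 in Lyl1-/-, and none had unadjusted p under 0.05 (limma) in either comparison. Stat2 and Irf9, which form the complex that binds the ISRE, were at 90.1 to 111 and 181 to 258 and differed from WT by 0.05 and 0.04 in E2A-/- and by 0.05 and 0.18 in Lyl1-/-. Irf7, the factor that amplifies interferon production, was at 103 to 148 with differences of -0.14 and -0.17. Irf1 was at 610.2, 514 and 558 on WT, 519.8, 499.8 and 493 on E2A-/-, and 589, 542 and 587 on Lyl1-/- arrays. E2A-/- lay below Lyl1-/- (log2 difference -0.18, SE 0.0873, adjusted p = 0.612) and overlapped WT through WT 2 (log2 difference -0.12).

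Ifi35, which is induced by both interferon types, was at 1817, 1738 and 1924 on WT, 1667, 1689 and 1372 on E2A-/-, and 2204, 1963 and 1931 on Lyl1-/- arrays. The genotypes were ordered without overlap, with Lyl1-/- highest and E2A-/- lowest. E2A-/- was 0.773 times Lyl1-/- (log2 difference -0.37, SE 0.109, adjusted p = 0.408), and its 2 other probe sets had the same direction, with -0.26 and -0.69. Lgals3bp, a secreted glycoprotein, was at 154 to 312 with overlap of all genotypes and differences of -0.25 in E2A-/- and 0.20 in Lyl1-/-.

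Xaf1, a pro-apoptotic protein that antagonises the inhibitor XIAP, had a result that depended on the probe set, as did Zbp1 and Dtx3l by smaller differences. Its brighter probe set, by the mean over the 9 arrays, was at 147, 150.2 and 149 on WT, 211, 223 and 219 on E2A-/-, and 263, 259 and 281 on Lyl1-/- arrays. The genotypes did not overlap, and the log2 difference from WT was 0.84 in Lyl1-/- (SE 0.0882, adjusted p = 0.0102) and 0.54 in E2A-/- (SE 0.0882, adjusted p = 0.0838). The Lyl1-/- call was lost without WT 2 (as with WT 2 and E2A-/- 2 both left out), without Lyl1-/- 1, without Lyl1-/- 2, without WT 1 and 3, and with sex as a covariate. The other probe set was at 417, 519.9 and 438 on WT but at 62.4, 57.1 and 66.5 on E2A-/- and 66.3, 61.9 and 62.4 on Lyl1-/- arrays, below the array median on every knockout array. It was above the median on the WT arrays alone, so it could enter a test only through the group where it was high, and the knockout values give a bound. With each knockout array set to its median, the WT level was at least 6.01-fold higher than in E2A-/- and at least 6.02-fold higher than in Lyl1-/- (adjusted p = 3.68e-05 and 2.66e-05 for the measured values when each probe set was tested). The 2 probe sets lay on opposite sides of WT in both knockouts.

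**Figure D5:**
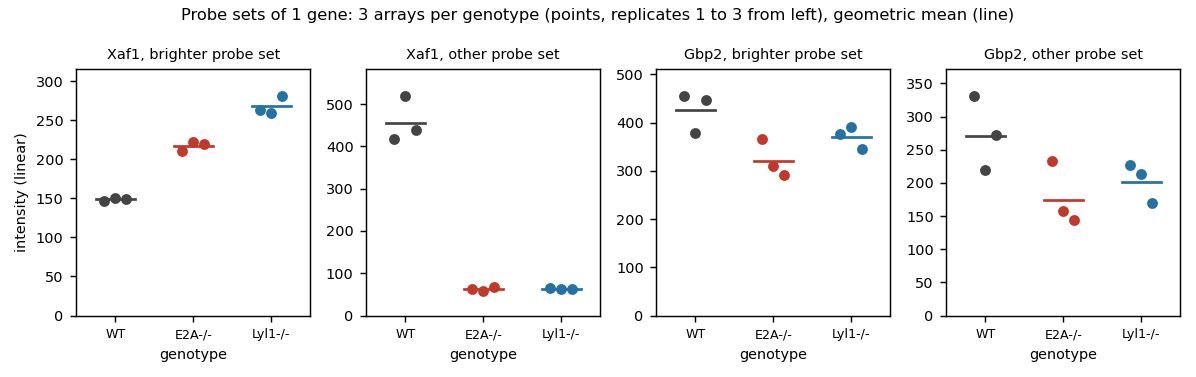
Intensity (vertical axis, linear array units) of both probe sets of Xaf1 and of Gbp2 by genotype (horizontal axis), with 1 point per array in the order of replicates 1 to 3 and a line at the geometric mean of the 3 arrays. The Xaf1 probe sets run in opposite directions (147 to 150.2 in WT against 211 to 281 in the knockouts for the first, 417 to 519.9 against 57.1 to 66.5 for the second), while both Gbp2 probe sets have lower means in E2A-/- than in WT.

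The negative differences in E2A-/- were found with and without an ISRE core in the promoter window. The 16 measured members with the letters had a median of -0.11 and 11 negative differences, and the 15 with a window that lacked them a median of -0.13 and 11 negative differences. The 10 members without a window in the table had a median of -0.29 and 10 negative differences. With unadjusted p under 0.05 (limma), 4 of the 16, 1 of the 15 and 6 of the 10 were lower in E2A-/- than in WT, against 5.36% of all genes. In Lyl1-/- the 3 medians were -0.03, 0.06 and -0.20. Between the knockouts they were -0.01, -0.24 and -0.26, with 9 of 16, 13 of 15 and 9 of 10 members lower in E2A-/-, against 52.6% of all genes. The difference between these classes was not tested.

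The genes around the list were read from wider lists of ligands, receptors and signalling molecules, interferon regulatory factors, sensors and adaptors, and other interferon-induced genes. Of the ligands, 10 of 19 were measured, 7 of these were above the array median on no array, and only Ifnz was tested, with a log2 difference of 0.13 in E2A-/-. Of 15 receptors and signalling genes tested, 0 passed the adjusted limma threshold in either knockout, with unadjusted p under 0.05 for 1 gene on the higher side in each (3.21% and 3.80% of all genes), and the median difference was -0.02 in E2A-/- and -0.04 in Lyl1-/-. Ifnar1 (112 to 163) and Ifnar2 (278 to 442), the type I receptor chains, overlapped in all genotypes, with 0.12 and -0.21 in E2A-/-. Ifngr1, a chain of the interferon gamma receptor, was at 225, 138 and 207 on WT, 246, 309 and 273 on E2A-/-, and 256, 244 and 227 on Lyl1-/- arrays, which lay above WT in both knockouts, with WT 2 as the lowest array. Its log2 difference was 0.67 in E2A-/- (SE 0.186, adjusted p = 0.319) and 0.49 in Lyl1-/- (SE 0.186, adjusted p = 0.49). Jak2, the kinase of that receptor, was at 552 to 612 on WT and at 436 to 509.8 and 405 to 545 on the knockout arrays, below WT in both (log2 differences -0.31 and -0.32, adjusted p = 0.623 and 0.576). Socs1, the feedback inhibitor, was at 71.4 to 81.1, the level of the array median.

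Of the 6 further interferon regulatory factors tested, 0 passed the limma threshold against WT and 0 had unadjusted p under 0.05. Irf8, which directs monocyte and dendritic cell development, was at 500.0, 216 and 514 on WT, 616, 414 and 537 on E2A-/-, and 445, 465 and 580.5 on Lyl1-/- arrays, with WT 2 as the lowest array. Of the 16 sensors and adaptors tested, 0 passed, with unadjusted p under 0.05 for 1 on the lower side in E2A-/- and 2 on the higher side in Lyl1-/-, where 5.36% and 3.80% of all genes were. Adar, the RNA editing enzyme that keeps self RNA from being sensed, was at 242, 256 and 219 on WT, 204, 197 and 204 on E2A-/-, and 237, 221 and 243 on Lyl1-/- arrays. The E2A-/- values were below both others (log2 difference -0.27 from WT, SE 0.0948, adjusted p = 0.47). The RNase H2 subunits Rnaseh2a and Rnaseh2c were on the higher side in Lyl1-/-, with 0.70 (SE 0.227, adjusted p = 0.404) and 0.39 (SE 0.156, adjusted p = 0.526).

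Of 62 other interferon-induced genes tested, 37 had negative differences in E2A-/- (59.7%, against 53.7% of all genes) and 28 in Lyl1-/- (45.2%, against 51.4%), with medians of -0.10 and 0.03. Between the knockouts 45 were lower in E2A-/- (72.6%, against 52.6%), with a median of -0.10. With unadjusted p under 0.05, 8 were lower and 5 higher in E2A-/-, against 5.36% and 3.21% of all genes, and 4 lower and 9 higher in Lyl1-/-, against 5.0% and 3.80%. The only one of them past the adjusted threshold was Ifi44l, a paralogue of the member Ifi44, in both knockouts. Ifi44l was at 188, 334 and 170.3 on WT, 56.9, 65.5 and 65.0 on E2A-/-, and 60.3, 56.1 and 61.0 on Lyl1-/- arrays. All knockout arrays were below the array median, so Ifi44l passed the filter through the WT arrays alone. With each knockout array set to its median, the WT level was at least 3.11-fold higher than in E2A-/- and at least 3.12-fold higher than in Lyl1-/- (adjusted p = 0.0152 and 0.0113 for the measured values). B2m, the light chain of MHC class I, was at 5643, 5788 and 6011 on WT, 4245, 4278 and 3407 on E2A-/-, and 4370.1, 4692 and 3984 on Lyl1-/- arrays, below WT in both (log2 differences -0.55 and -0.42, SE 0.128, adjusted p = 0.206 and 0.371). B2m was thus on the lower side in Lyl1-/-, where Psmb8 and Psmb9 were on the higher side.

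Samd9l, an interferon-induced inhibitor of growth and translation, was at 495, 510.0 and 463 on WT, 301, 338 and 247 on E2A-/-, and 311, 329.5 and 457 on Lyl1-/- arrays. Like Ifi27l2a and Ddx58, it was low on all E2A-/- arrays and on Lyl1-/- 1 and 2, and near WT on Lyl1-/- 3 (log2 differences -0.75 and -0.46, SE 0.188, adjusted p = 0.242 and 0.549). Slfn8 was on the higher side in both knockouts, with 0.37 in E2A-/- (adjusted p = 0.464) and 0.48 in Lyl1-/- (adjusted p = 0.296). Trim30d was below the array median on every WT array (67.5 to 69.9) and above it on every knockout array (84.3 to 107). It thus passed the filter only through the knockout arrays, where it was high. With WT set to the median, it was at least 1.28-fold higher in E2A-/- and at least 1.16-fold higher in Lyl1-/- (adjusted p = 0.118 and 0.244 for the measured values). The chemokine Ccl5 was at 102 to 116 on WT and 138 to 175 on E2A-/- arrays (log2 difference 0.55, SE 0.13, adjusted p = 0.221).

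Transcripts of other cells differed between the arrays. The summed intensity of 12 granulocyte and monocyte markers was 1550 to 1736 on WT, 1392 on E2A-/- 1, 17350 on E2A-/- 2, 19590 on E2A-/- 3 and 1521 to 3095 on Lyl1-/- arrays. E2A-/- 1, whose sum was below that of every WT array, had 31 of 41 members lower and a median of -0.18. The summed intensity of 6 erythroid markers was 676 to 718 on WT, 1411, 898 and 1995 on the E2A-/- arrays, and 524 to 620 on Lyl1-/- arrays. The median log2 difference of 12 stem cell markers from WT was -0.22, -0.29 and -0.57 on the E2A-/- arrays and -0.57, -0.37 and -0.19 on the Lyl1-/- arrays. The sums of 8 stromal and endothelial markers were 589, 966 and 593 on WT, 535 to 576 on E2A-/- and 564.5 to 594 on Lyl1-/- arrays. Those of 7 conventional dendritic cell markers were 1754 to 2106, 1834 to 1967, and 1464, 1628 and 2423. Those of 7 B and plasma cell markers were 2499 to 3450, 1787 to 2662, and 1966, 1909 and 2827. Those of 6 megakaryocyte markers were 692.5 to 758, 674.5 to 1212 and 756 to 815. The part of these transcripts in the members' levels was not tested. Plasmacytoid dendritic cells, the known high producers of type I interferon, were followed with 9 markers, whose sum was 1617 to 1814 on WT, 1466 to 1788 on E2A-/- and 1436 to 1588 on Lyl1-/- arrays. Tcf4 and the member Bst2 made up much of this sum, and the other 7 markers summed to 636 to 782 on WT, 615 to 668 on E2A-/- and 614 to 767 on Lyl1-/- arrays. Their defining marker Siglech was at 75.9 to 84.2 on all arrays, the level of the array median, and Spib was above it on no array. For macrophages, 6 of 10 markers were above the array median on no array, and the sums were 704 to 725 on WT, 682 to 689 on E2A-/- and 688 to 746 on Lyl1-/- arrays. For T and NK cells, 3 of 7 measured markers (Cd3g, Ncr1 and Gzmb) were above it on no array, and the sums were 1149 to 1400, 1520 to 2002 and 1291 to 1419. Nkg7, one of them, was at 1032 to 1513 on E2A-/- arrays against 659 to 918 on WT arrays.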

How the data were processed

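RNA from 9 sorted samples was hybridised to Affymetrix 3' expression arrays. Per the submitters' processing notes, values were made with RMA in the oligo package, without versions given. The deposited values are intensities on a linear scale, with array medians of 77.9 to 79.2 and lowest values of 42.1 to 45.1, so log2 differences of dim probe sets are understated. The array has no read depth, and the number of arrays limits the precision. Of 45101 probe sets, 64 controls were left out. The platform annotation names 1 gene for 34945 probe sets, several for 932 and none for 9160. From the intensities, log2 was taken with no pseudocount, the brightest probe set per gene kept, and a gene tested where 3 or more arrays exceeded their own median for it.

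Differences were tested with limma 3.58.1 (lmFit and eBayes, R 4.3.3) in 1 fit of 8 samples, with 5 residual degrees of freedom, WT 1 and WT 3 averaged, and p-values adjusted by Benjamini-Hochberg over 11961 genes at a threshold of 0.05. On simulated data for E2A-/- against WT, the procedure recovered 20% of log2 differences of 0.5 and 92% of those of 1, with 12 false calls among 168. Most differences of that smaller size would therefore be missed. The p-values measure the spread between these samples, which the labels call biological replicates.

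The members and the wider lists were chosen with earlier results of these data known. Every member is named, with values on each array where unadjusted p was under 0.05 or groups did not overlap in a comparison. From each wider list up to 6 genes with the smallest p were considered, together with receptor and feedback genes set in advance. Where all arrays of a group were below their medians, a lower bound of the fold was taken with those arrays set to their medians, a floor chosen after seeing the data. Promoters and gene order came from RefSeq tables. Alternatives covered the separate counting of arrays, filters, probe sets, scaling, covariates and left-out arrays.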

Additional observations from a re-analysis of the deposited data

How the results depend on the processing

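Under 25 alternatives the median log2 difference of the members stayed negative, from -0.25 to -0.13 in E2A-/- against WT, -0.13 to -0.0043 in Lyl1-/- against WT and -0.19 to -0.11 in E2A-/- against Lyl1-/-. Part of these alternatives could not move the median and say nothing about its stability. They were the intensity trend, fits of only the 2 groups compared, no filter, each probe set tested, and left-out arrays of the genotype not compared. The 2 WT samples, 5 residual degrees of freedom and understated differences of dim probe sets limit what could be called.

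Taking the 9 arrays as separate samples counts WT 1 and WT 3 separately, though they were nearly alike. With this setting, 97 genes passed the threshold in E2A-/-, 93 in Lyl1-/- and 23 between the knockouts. They included 4 members in E2A-/- and 1 (Oas1a) between the knockouts. With the replicate block added, these were 60 genes with 3 members, 55 genes and 13 genes. Correlations between arrays of different genotypes, as deviations from group means, were -0.143 to 0.221 for same-numbered pairs and -0.223 to 0.195 for others. Of the same-numbered pairs, 4 of 9 were over 0.1, and 4 of 9 arrays correlated best with their own number. With 3 arrays per group, and WT 1 and WT 3 nearly alike, these values cannot decide whether the numbers pair the samples.

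With all probe sets of each gene averaged, Xaf1 reversed to -1.19 in E2A-/- and -1.02 in Lyl1-/-, since its probe sets oppose each other. The members' median was then -0.15 in E2A-/- and -0.11 between the knockouts, with 1 member past the threshold in each. Testing each probe set gave 45 and 44 genes, with 1 member probe set in E2A-/- and 2 in Lyl1-/-, all of Xaf1. The E2A-/- call and 1 of the Lyl1-/- calls were of the dimmer Xaf1 probe set, which passed the filter through the WT arrays alone. Without the filter, 1 member passed in E2A-/-.

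The cause of the following shifts was not tested. An intensity trend gave 43 genes in E2A-/- and 42 in Lyl1-/-. Fits of only the 2 groups compared gave 10 and 15. Sex as a covariate gave 15 and 7 genes, medians of -0.22 and -0.13, and 0 members in Lyl1-/-. The actin ratio as a covariate gave 12 genes in Lyl1-/- and 9 between the knockouts, with a median of -0.14 (-0.145) there. Repeated quantile normalization gave a median of -0.14 (-0.1406) between the knockouts, and subtracting the array minimum one of -0.22 (-0.2221) in E2A-/-.

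Leaving out 1 array at a time gave 8 to 36 genes, 0 to 1 members and medians of -0.22 to -0.15 (-0.1489) in E2A-/-, 7 to 34 genes, 0 to 1 members and medians of -0.11 to -0.032 in Lyl1-/-, and 3 to 21 genes and medians of -0.19 to -0.15 (-0.1514) between the knockouts. Without WT 1 and 3, there were 13 genes and a median of -0.13 in E2A-/-, and 14 genes, 0 members and a median of -0.0043 in Lyl1-/-. Without E2A-/- 2 and 3, there were 6, 15 and 4 genes and a median of -0.13 between the knockouts. Without WT 2 and E2A-/- 2, there were 9, 8 and 3 genes, with medians of -0.25, -0.11 and -0.15 and 0 members in Lyl1-/-.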
